A study of Drosophila melanogaster with 42 samples.

Results

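The 10 genes described here count the X chromosomes of the fruit fly embryo or act on the result of that count, and all 10 were found by their symbols among 13842 protein-coding genes on the X and the arms of chromosomes 2 and 3. 6 of them lie on the X, namely Sxl, sisA, sc, run, upd1 and snf, and 4 lie on autosomes, namely tra, fl(2)d, dpn and da. They were picked by their role in sex determination, with earlier results of these data known. The data come from 42 chromatin immunoprecipitation and sequencing (ChIP-seq) samples of Drosophila melanogaster whole embryos, 26 of ChIP and 16 of input, aged 3-4 h or 11-12 h. On 3 samples per stage for each target, MSL2, MOF and acetylated lysine 16 of histone H4 (H4K16ac) were mapped in chromatin cut with micrococcal nuclease (MNase), at 0.9 units per g of embryos aged 3-4 h and 2.9 units per g of those aged 11-12 h, so that enzyme dose and stage changed together. Sonicated chromatin served for H4K16ac and for trimethylated lysine 36 of histone H3 (H3K36me3), with 2 samples per stage and mark. By their titles the sonicated samples were replicates A and B, those of MSL2 A to C, and those of MOF and MNase H4K16ac D to F. Preparation and replicate letters thus changed together for H4K16ac. No group carries a stated mutation or treatment, and the labels state neither sex nor strain.

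In flies, females have more X chromosomes than males, and the embryo reads that difference through X-linked genes whose early products, the X signal elements, switch on Sxl. Once on, Sxl protein keeps its own splicing pattern going, directs tra to its female splice form and blocks translation of msl-2, so that the MSL complex forms in males. That complex, with MSL2 as its male-specific subunit and MOF as its acetyltransferase, coats the male X and acetylates H4 at lysine 16, and H3K36me3 marks bodies of transcribed genes.

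The values are 12 lists of regions deposited by the authors, 1 per antibody, preparation and stage, with MSL2 split into mononucleosomal and subnucleosomal fragments. Each list stands for all replicates of its group and holds positions only, so the depth is unknown, no value has an SD, and no test between stages or genes was made. A gene is called touched when at least 1 bp of its annotated body lies under a region, and its covered share is the percent of the body under regions. The lists run from 131 regions for MSL2 subnucleosomal fragments at 3-4 h to 4075 for H3K36me3 at 11-12 h. A gene that no region touches was not called in that list, which does not show that the protein or mark was absent, and in whole embryos a mark in few cells cannot be told apart from a weak mark in many. Positions are on dm6, counted from 1, and the gene table gives no strand, so gene ends are called low and high by coordinate.

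None of the 10 genes had an MSL2 region on its body, or within 2 kb of it, in any of the 4 MSL2 lists. Of all X-linked protein-coding genes, 24.6% were touched in at least 1 of those lists, and of autosomal genes 0.876%. In the mononucleosomal lists the share of X genes was 17.8% at 3-4 h and 20.6% at 11-12 h, and that of autosomal genes 0.0515% and 0.0687%. In the subnucleosomal lists it was 5.05% and 6.78% on the X and 0.0429% and 0.756% on the autosomes. Most X genes were thus untouched by MSL2 as well, and the 0 of 6 was not tested against them. These shares count the gene body alone, without the 2 kb around it. In the mononucleosomal lists they were 7.36% and 9.06% for X genes under 2 kb, as sisA, sc and snf are. For X genes of 2 to 10 kb, as run and upd1 are, they were 25.6% and 29.2%. Over 10 kb, as for Sxl, they were 22.8% and 26.5%. MOF touched 0 of 6 X-linked genes at 3-4 h, against 48.5% of X genes, and 1 of 6 at 11-12 h, against 54.7%. The 1 gene was snf. No autosomal gene of the 4 was touched by MOF, against 0.395% of autosomal genes at 3-4 h and 1.22% at 11-12 h.

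**Figure D1:**
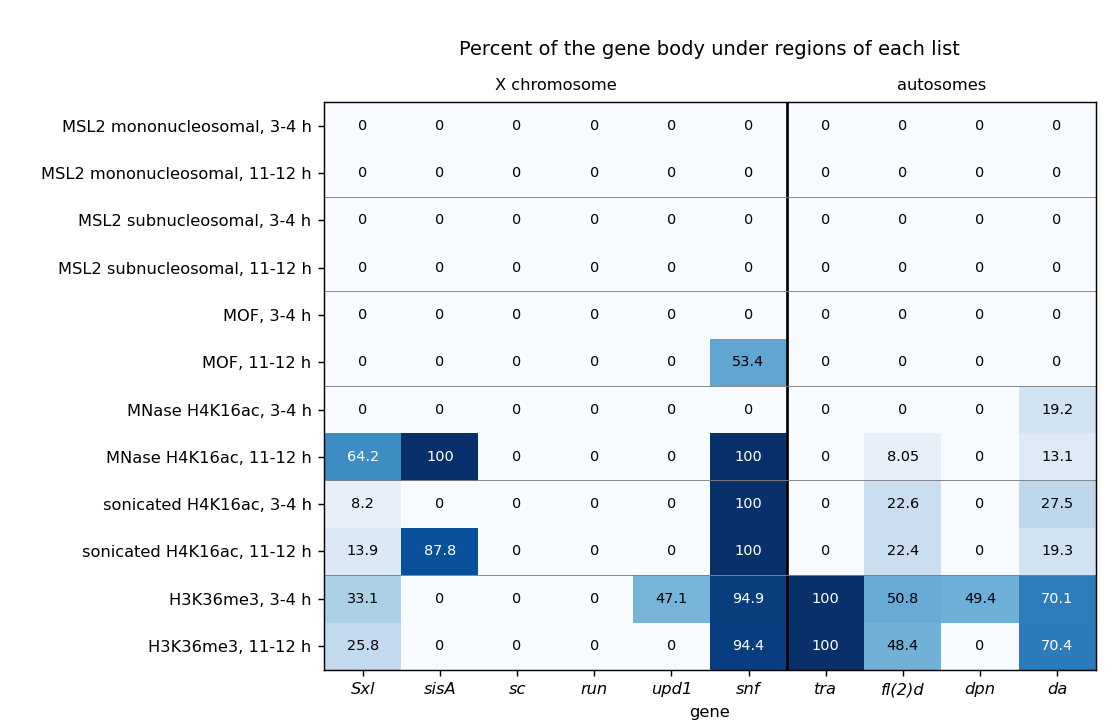
Percent of each gene body (columns, 6 X-linked and 4 autosomal genes) under regions of each of the 12 lists (rows, 6 kinds at 2 stages); darker blue is more. The MSL2 rows are 0 throughout, sc and run are 0 in every list, and H3K36me3 covers part or all of all 4 autosomal genes at 3-4 h.

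The H4K16ac lists touched more of the X-linked genes at 11-12 h than at 3-4 h, and their share of all X genes rose as well. On MNase chromatin H4K16ac touched 0 of 6 at 3-4 h, against 59.1% of X genes, and 3 of 6 at 11-12 h, against 74.5%. Sxl, sisA and snf were the 3, and all 3 were listed at 11-12 h only, a class that held 15.4% of X genes. On sonicated chromatin the count was 2 of 6 at 3-4 h (Sxl and snf), against 59.2% of X genes, and 3 of 6 at 11-12 h, against 68.1%, with sisA as the added gene; sonicated regions of 11-12 h only were found at 9.42% of X genes. H4K16ac in the autosomal genes was present at 2 of 4, da and fl(2)d, in sonicated chromatin at both stages, against 32.9% and 21.9% of autosomal genes. On MNase chromatin it touched da alone at 3-4 h, against 9.01% of autosomal genes, and da with fl(2)d at 11-12 h, against 14.2%.

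H3K36me3 touched all 4 autosomal genes at 3-4 h, against 50.8% of autosomal genes. It touched 3 of 6 X-linked genes (Sxl, upd1 and snf), near the 53.8% of all X genes. At 11-12 h the counts were 3 of 4, against 51.5%, and 2 of 6, against 55.5%. For autosomal genes of 2 to 10 kb, as fl(2)d, dpn and da are, the shares were 62.5% and 63.4%. Under 2 kb, as for tra, they were 41.5% and 41.4%. The counts were not tested against these shares. The median covered share at 3-4 h was 60.4% over the 4 autosomal genes and 16.5% over the 6 X-linked genes. Over all autosomal and X genes it was 1.42% and 9.01%. At 11-12 h it was 59.4% and 0%, beside 3.26% and 13.2%. At 3-4 h 50.8% of autosomal and 53.8% of X genes were touched, so the medians over all genes fall among the least covered of them. Of all autosomal genes at 3-4 h, 20.0% were covered at least as much as tra, the most covered of the 4. For dpn, the least covered, that share was 37.1%. The genes lost between the stages were upd1 on the X and dpn on 2R, and regions of 3-4 h only were found at 2.09% of X genes and 2.11% of autosomal genes.

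**Figure D2:**
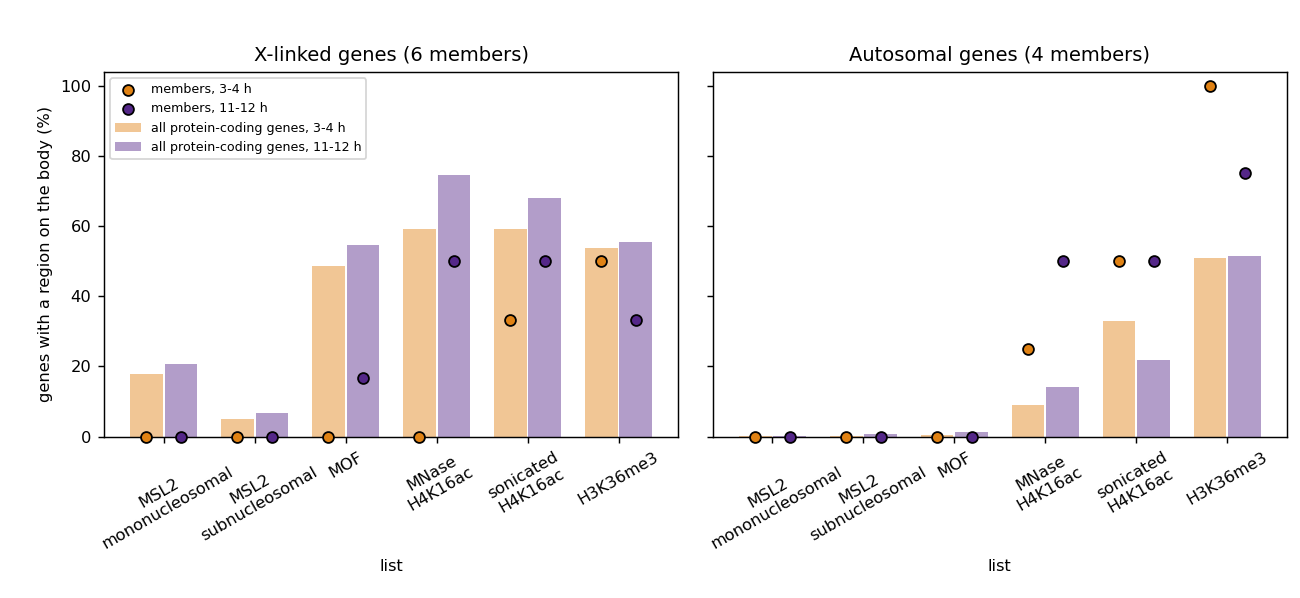
Percent of genes with a region on the body in each list, for X-linked genes on the left and autosomal genes on the right. Bars are all protein-coding genes and points are the 6 or 4 genes described here; orange is 3-4 h and purple 11-12 h. The points of the X-linked genes lie under their bar in each list, and those of the autosomal genes lie above it for H4K16ac and H3K36me3.

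Sxl, the switch gene itself, spans 23.5 kb (X 7074550 to 7098053) and encodes an RNA-binding protein. It was touched in 5 of the 12 lists, 2 at 3-4 h and 3 at 11-12 h; 57.1% of X genes were touched in at least as many. MNase H4K16ac covered 0% of Sxl at 3-4 h and 64.2% at 11-12 h, a share that 64.3% of X genes reached. The cover at 11-12 h was a single region of 15.1 kb (X 7075527 to 7090608). It began 0.977 kb inside the low end and stopped 7.45 kb short of the high end. That region touched no other protein-coding gene. It held no MSL2 and no MOF region of the same stage. Of the 834 X-linked MNase H4K16ac regions of 11-12 h, 476 (57.1%) were without MOF, with a median width of 2.02 kb. The region over Sxl was the 7th widest of these and the 165th widest of all 834.

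Sonicated H4K16ac gave a different picture of the same gene. It covered 8.20% of Sxl at 3-4 h, in a region of 2.26 kb across the high end (X 7096127 to 7098387), and 13.9% at 11-12 h. The 3 regions of 11-12 h were 1.00, 1.00 and 1.51 kb wide, and the last of them again crossed the high end. Of the 3259 bp of Sxl under sonicated regions at 11-12 h, 1000 bp (30.7%) lay inside the MNase region. Most bases listed by the preparations thus lay in different parts of the gene, and signal outside the regions is not known. H3K36me3 lay in the low-coordinate part, in 2 regions at each stage, and covered 33.1% at 3-4 h and 25.8% at 11-12 h, when a region beyond the high end added 66 bp. The H3K36me3 blocks kept their place, since 98.9% of the bases covered at 11-12 h were covered at 3-4 h, and 98.9% of them lay inside the MNase H4K16ac region of 11-12 h.

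Just past the high end of Sxl the chromatin was listed differently. CG4615, 0.524 kb away, was touched in 8 lists, with MOF over 55.4% of it at 3-4 h and 62.9% at 11-12 h and MNase H4K16ac over 56.4% and 100%. The MOF region came within 0.850 kb of Sxl at 3-4 h (X 7098904 to 7100552) and within 0.623 kb at 11-12 h (X 7098677 to 7100742), without reaching the annotated body. The nearest MSL2 mononucleosomal region lay over fz4, a Frizzled-type receptor gene, 9.07 kb from Sxl at 3-4 h and 8.59 kb at 11-12 h. On the low side CG4607, 1.86 kb away, was touched in 0 of 12 lists. Sxl thus sat between a gene free of all listed regions and a stretch that carried MOF at both stages.

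**Figure D3:**
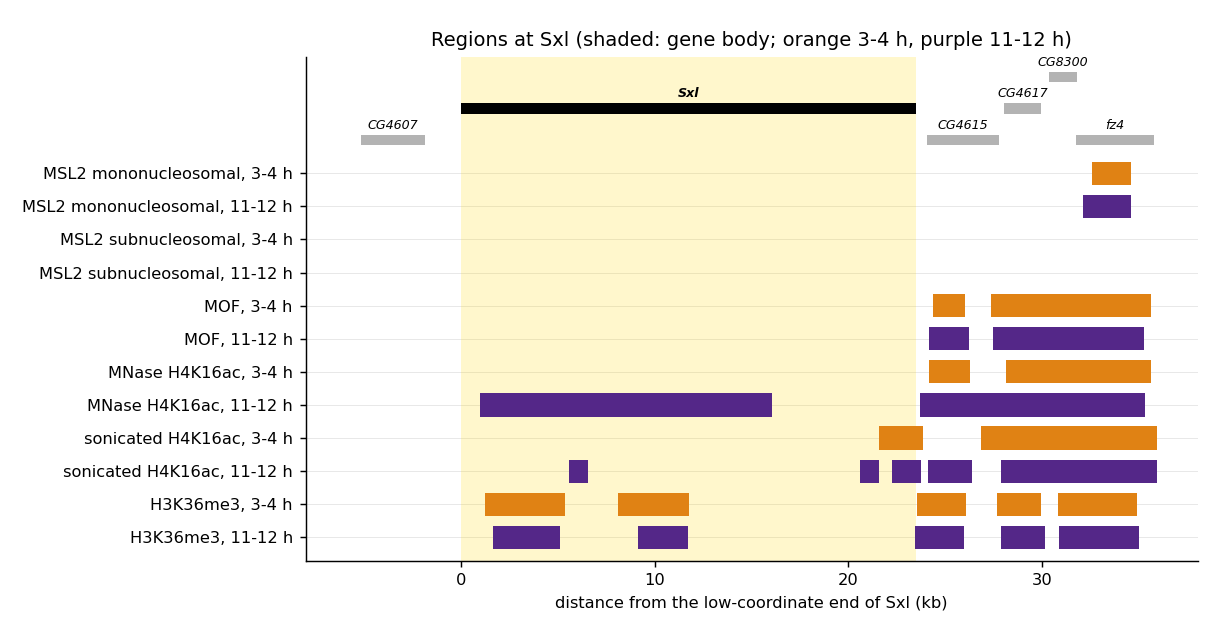
Regions of the 12 lists around Sxl, with distance from its low-coordinate end in kb on the x axis; orange bars are 3-4 h, purple bars 11-12 h, grey bars neighbouring protein-coding genes and the shaded band the body of Sxl. The MNase H4K16ac region of 15.1 kb appears at 11-12 h only, and MOF and MSL2 regions lie beyond the high end.

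The X genes whose covered shares over the 12 lists came closest to those of Sxl were CBP, CG42353, CG42354, ogre, an innexin gene, and CG43736, at a mean absolute difference of 4.48 to 4.79 percentage points. CG42353 and CG42354 have the same coordinates in the table and count as 1 place. The 5 genes were picked by these same shares, so what they have in common with Sxl follows from the choice. All 5 had an MNase H4K16ac share of 41.5% to 55.0% at 11-12 h and no MSL2 or MOF region. CBP, the closest, lies at X 7337352 to 7342731, and its MNase H4K16ac share went from 0% to 45.4%. Its sonicated H4K16ac share went from 13.0% to 0%, whereas that of Sxl went from 8.20% to 13.9%.

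The X signal element sisA, which encodes a bZIP protein, is a gene of 0.779 kb (X 11321579 to 11322357). It was touched in 2 lists, both of H4K16ac at 11-12 h. MNase H4K16ac covered 100% of it, as it did 50.7% of X genes, in a region of 19.9 kb (X 11319702 to 11339565). That region also touched l(1)10Bb, Gapvd1 and Kap3, and at 3-4 h the nearest MNase H4K16ac region was 2.17 kb away. Sonicated H4K16ac covered 87.8% at 11-12 h, in a region of 2.41 kb, and came within 1.78 kb at 3-4 h. Unlike the region over Sxl, the MNase region over sisA held 3 MSL2 mononucleosomal regions and a MOF region of 12.0 kb. The nearest of these lay over Gapvd1, 5.81 kb from sisA for MSL2 and 4.64 kb for MOF. At 3-4 h the distances were 9.98 and 5.06 kb. H3K36me3 was listed next to sisA, at 1.16 and 1.22 kb, on l(1)10Bb and Gapvd1, and not on it at either stage.

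For comparison with size, 48.4% of X genes under 2 kb, the class of sisA, sc and snf, were touched by MNase H4K16ac at 3-4 h and 60.6% at 11-12 h. For X genes of 2 to 10 kb, the class of run and upd1, the shares were 73.2% and 85.1%. In the class of Sxl, over 10 kb, they were 49.5% and 80.4%.

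The splicing gene snf, whose product is a protein of the U1 and U2 snRNPs that Sxl works with on its own transcript, was the X-linked gene of the 6 with most lists. It spans 1.26 kb (X 5309242 to 5310501) and was touched in 6 lists, 2 at 3-4 h and 4 at 11-12 h. Of X genes, 53.9% were touched in at least as many. Sonicated H4K16ac covered 100% of snf at both stages, by a stretch of 3.23 kb and later 8.68 kb. It wholly covered 25.3% and 38.7% of X genes. MNase H4K16ac covered 100% of snf at 11-12 h, as it did 50.7% of X genes, in a region of 13.3 kb (X 5298760 to 5312042) over 6 genes. At 3-4 h it covered 0%, with the nearest region 3.40 kb away. At 3-4 h the preparations therefore differed at this gene, and at 11-12 h they covered the same bases. H3K36me3 covered 94.9% and 94.4% of snf, shares that 21.2% and 21.5% of X genes reached.

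MOF was the list in which snf stood apart from the other 9 genes. At 3-4 h a MOF region of 1.69 kb over Cdk7, the gene 0.258 kb away on the low side, ended 0.185 kb before snf. At 11-12 h that region ended 53 bp before it, and a region of 1.78 kb (X 5309829 to 5311609) covered 53.4% of snf and reached into TrxT, a thioredoxin gene. At 11-12 h MOF covered 42.3% of X genes at least as much as snf. MOF at 11-12 h only was found at 6.96% of X genes. The nearest MSL2 mononucleosomal region at 3-4 h was 16018 bp away, over CG3309 on the high side, where a region was also listed at 11-12 h. At 11-12 h the nearest was 7506 bp away, over CG42749 on the low side. That one lay inside the MNase H4K16ac region that covers snf.

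**Figure D4:**
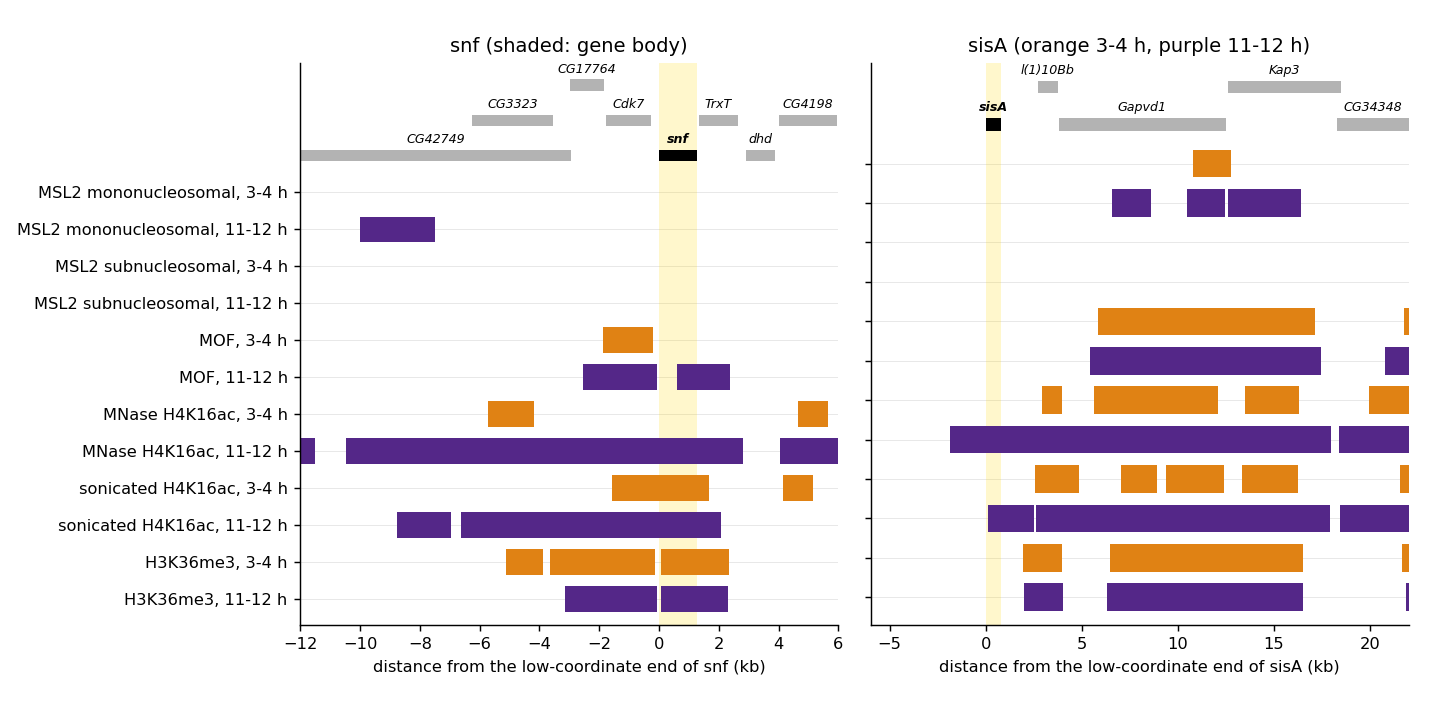
Regions of the 12 lists at snf (left) and sisA (right), with distance from the low-coordinate end of each gene in kb on the x axis; orange bars are 3-4 h, purple bars 11-12 h, grey bars neighbouring genes and the shaded bands the gene bodies. At both genes the MNase H4K16ac region of 11-12 h spans the gene and reaches MSL2 regions several kb away, whereas no MSL2 region touches either gene.

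The X signal elements sc and run lay far from the nearest MOF regions. The gene sc, a proneural bHLH transcription factor also called sisterless-b, spans 1.44 kb (X 396060 to 397497) and was touched in 0 of 12 lists. So was run, the founding Runt-domain gene, over 6.65 kb (X 20690670 to 20697321). Of all X genes, 24.5% were touched in none. The nearest MOF region was 71.9 kb from sc at 3-4 h and 71.6 kb at 11-12 h, distances that 9.15% and 8.06% of X genes reached or passed, and in both cases it lay over ebo. For run it was 166 kb away at both stages, over Tak1, as far as or farther than in 2.87% and 2.41% of X genes. The median X gene had MOF within 0.182 kb at 3-4 h and on its body at 11-12 h.

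The early signal gene upd1, which encodes a ligand of the JAK/STAT pathway, was touched in 1 list. H3K36me3 covered 47.1% of its 3.94 kb (X 18305354 to 18309291) at 3-4 h, in a region of 2.00 kb at the low end (X 18305205 to 18307209), and 0% at 11-12 h, when the nearest H3K36me3 region was 63.1 kb away. The MOF distance was 61.8 and 62.2 kb, and H4K16ac came no nearer than 61.2 kb in any of its 4 lists. The H3K36me3 region of 3-4 h was the only listed region in a stretch of 131 kb (X 18239600 to 18370462), which also holds the paralogs upd2 and upd3.

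**Figure D5:**
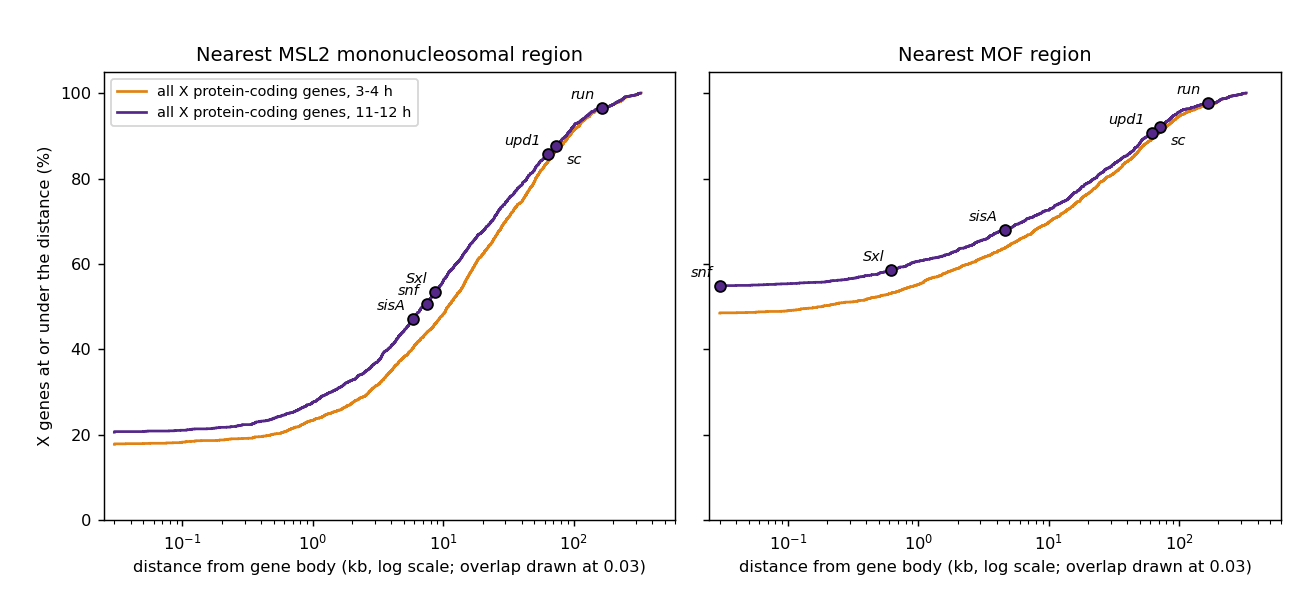
Share of X-linked protein-coding genes (y axis, %) with the nearest MSL2 mononucleosomal (left) or MOF (right) region at or under a given distance (x axis, kb, log scale; overlaps are drawn at 0.03). Lines are all X genes at 3-4 h (orange) and 11-12 h (purple), and points are the 6 X-linked genes at 11-12 h. Sxl, sisA and snf lie near the middle of the MSL2 curve, and sc, upd1 and run near its top.

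Long stretches without any listed region surround sc and run. On the X, 737 stretches between neighbouring regions of any list had a median width of 2.02 kb. The stretch with run was 493 kb wide (X 20525681 to 21018884), the 2nd widest, and held 21 whole protein-coding genes, among them its relatives RunxA and RunxB. The stretch with sc was 163 kb wide (X 279966 to 443176), the 18th widest, and held 10 whole genes, among them y, a pigmentation gene, and the achaete-scute genes ac and l(1)sc. The fourth gene of that complex, ase, lies outside it and had H4K16ac at 11-12 h over 100% on MNase and 63.1% on sonicated chromatin. The body of sc also lies within the annotated span of CG32816, which is 154 kb long, so listed regions on CG32816 are not regions on sc.

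Among the autosomal genes da had the most lists. It encodes a maternally supplied bHLH protein that pairs with the sc product, and spans 5.12 kb (2L 10388105 to 10393228). It was touched in 6 lists, as many as snf. At least as many lists touched 4.70% of autosomal genes and 53.9% of X genes. H4K16ac lay at its low end, over 19.2% and 13.1% on MNase chromatin and 27.5% and 19.3% on sonicated chromatin at 3-4 h and 11-12 h. H3K36me3 covered 70.1% and 70.4%, mostly away from that end, since 153 bp at 3-4 h and 129 bp at 11-12 h were shared with sonicated H4K16ac. The marks thus divided the gene body in the same way at both stages.

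The same division was present at fl(2)d, whose product belongs to the RNA methyltransferase complex that helps Sxl in splicing. The gene spans 4.93 kb (2R 13819624 to 13824553). Sonicated H4K16ac covered 22.6% and 22.4% at its high end, reaching into CG13339, and MNase H4K16ac covered 0% at 3-4 h and 8.05% at 11-12 h. MNase H4K16ac of 11-12 h only was found at 8.37% of autosomal genes. H3K36me3 covered 50.8% and 48.4%, mainly at the low end, and shared 62 bp and 152 bp with sonicated H4K16ac.

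The gene tra, a splicing regulator and direct target of Sxl, spans 0.992 kb (3L 16590059 to 16591050). It lay wholly under an H3K36me3 region at both stages, of 7.05 kb at 3-4 h and 6.65 kb at 11-12 h, shared with l(3)73Ah and spd-2. A covered share of 100% was reached by 20.0% and 18.4% of autosomal genes. H4K16ac did not touch it, but sonicated regions ended 462 and 600 bp away and MNase regions 1097 and 595 bp away, on the side of l(3)73Ah. The bodies of tra and l(3)73Ah overlap in the table, so their shared bases count for both. A MOF region of 1.00 kb was listed 6.56 kb from tra at 11-12 h, over Rpn12, and the nearest at 3-4 h was 2278 kb away.

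The gene dpn, a bHLH repressor that counts against the X signal as an autosomal element, spans 3.36 kb (2R 8228971 to 8232330). H3K36me3 covered 49.4% of it at 3-4 h, in a region of 2.26 kb across the low end that also took in part of CG34217, and 0% at 11-12 h. At the later stage the nearest H3K36me3 region, of 15.3 kb over LRP1, ended 1.83 kb from dpn. H4K16ac was not listed on dpn. On sonicated chromatin its nearest region was 63.0 kb away at 3-4 h and 4.47 kb away at 11-12 h. On MNase chromatin the distances were 64.4 and 4.72 kb, with pnut carrying the nearer regions at 11-12 h.

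Other genes of the pathway, 23 in all, were listed by function, and all 23 were found, 8 on the X and 15 on autosomes. MSL2 mononucleosomal regions touched 1 of the 8 X-linked genes at both stages, beside 17.8% and 20.6% of all X genes. The gene was hop, the JAK kinase, and they covered 91.1% of it at 3-4 h and 55.8% at 11-12 h. MOF touched hop and dome, the receptor of the Upd ligands, over 99.3% and 97.9% of their bodies at 3-4 h and 100% and 96.4% at 11-12 h, which makes 2 of 8 beside 48.5% and 54.7% of all X genes. The receptor and kinase genes of the pathway were in the MOF lists at both stages, as were 47.7% of X genes. Its ligand genes upd1, upd2 and upd3 were in the MOF list of neither stage, as were 44.5% of X genes. These ligand genes lie together in a stretch of 131 kb and count as 1 place. MNase H4K16ac touched 2 of the 8 at 3-4 h and 4 of 8 at 11-12 h, below the 59.1% and 74.5% of all X genes, whose share rose as well. The early activator gene zld had H3K36me3 over 34.4% at 3-4 h and 0% at 11-12 h, as upd1 and dpn had it at 3-4 h only.

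Of the autosomal genes of the pathway, 12 of 15 were in the H3K36me3 list at 3-4 h and 13 of 15 at 11-12 h, beside 50.8% and 51.5% of all autosomal genes. None was in an MSL2 or MOF list, each of which touched at most 1.22% of autosomal genes. All 5 partners of Sxl in splicing, vir, nito, Mettl3, Mettl14 and Ythdc1, carried H3K36me3 at both stages over 65.5% to 100% of their bodies. Sonicated H4K16ac touched 12 of the 15 at 3-4 h and 7 at 11-12 h, while the share of all autosomal genes went from 32.9% to 21.9%. The gene msl-2, whose mRNA Sxl protein blocks, had it over 90.4% and 91.2%. The late effector genes dsx and fru, which set sexual differentiation and behaviour, are long, at 43.1 and 131 kb. H3K36me3 touched dsx at both stages, over 3.65% and 2.93% of it, and fru was touched in 0 of 12 lists. So was emc, an early regulator gene, and 43.6% of all autosomal genes were touched in none. The other genes listed as targets or lower steps, tra2, ix, her, msl-2 and mle, were touched in 4 to 6 lists.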

How the data were processed

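Per the submitters' processing notes, reads were handled with Bowtie2 2.2.9, SAMtools and HOMER on the dm6 build; those notes give neither the role of a tool nor its settings, nor how replicates and inputs entered. The authors deposited 12 lists that hold a chromosome and 2 positions per region and no score, and by the sample labels every replicate of a group belongs to the same list. Other values of the lists, such as width and covered share, were computed here from those deposited positions. Samples were grouped by antibody, preparation and stage from their titles. Gene spans came from a RefSeq table of the Release 6 assembly, the same as dm6, which has no strand, exons or sequence; motif counts in promoters and the gene start alone, both planned, were not run. For each gene, covered bases, regions within 2 kb and the distance to the nearest region were computed and set beside all 2197 X-linked or 11645 autosomal protein-coding genes. No test was made, since the lists hold no replicates and the 10 genes and all gene lists were chosen with earlier results of these data known. Named were the 10 genes, their nearest neighbours, the 5 X genes closest to Sxl and 23 further pathway genes; genes under regions next to these were named after their values were seen. Covered bases, overlap, joining and distance matched a count base by base in each simulation. Python 3.11.15, numpy 2.4.6, pandas 2.3.3 and matplotlib 3.10.9 were used. Alternatives were at least 50% of the gene body, 1 kb or 2 kb added to genes, regions within 1 kb joined and the widest 50% of each list.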

Additional observations from a re-analysis of the deposited data

How the results depend on the processing

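Of 116 counts of touched genes under other settings, 97 stayed within 1.5 times the count reported, and 19 did not. The 97 include counts that were 0 and stayed 0, as for MSL2 and for MOF on the autosomal genes. Joining regions within 1 kb changed none of its 24 counts beyond that, but it can add a gene only where the gene lies wholly in a joined gap. With 1 kb or with 2 kb added to genes, X-linked genes touched by MOF became 2 at 3-4 h and 2 at 11-12 h, and those touched by MNase H4K16ac at 3-4 h became 1; with 2 kb, autosomal genes with MNase H4K16ac at 3-4 h became 2. With at least 50% of the body required, X-linked genes became 1 for sonicated H4K16ac at 3-4 h and 1 for H3K36me3 at 3-4 h and at 11-12 h, and autosomal genes became 0 for MNase and sonicated H4K16ac at both stages. In the widest 50% of each list, X-linked genes became 0 for MOF at 11-12 h, 1 for H3K36me3 at 3-4 h and 0 at 11-12 h, and autosomal genes became 0 for MNase H4K16ac and 2 for H3K36me3 at 3-4 h. The cause was not tested. The MSL2 counts stayed at 0 in each setting run; the subnucleosomal lists have a single width and were not halved. No paired analysis was possible because each list pools its replicates, and for the same reason leaving out each replicate was not run. The lists carry no read depth.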

Other observations

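Of the 476 X-linked MNase H4K16ac regions of 11-12 h without MOF, the widest, at 30.6 kb (X 13574459 to 13605016), touched Tpst, up, a troponin gene, and CG46311. The next lay over sdk with 3 other genes (20.7 kb), CanA-14F, a calcineurin gene (19.8 kb), S6KL with bnb and 2 others (19.1 kb), and pot with Sclp, Pdzd8 and cac, a calcium channel gene (16.3 kb). The regions over Tpst and CanA-14F, like the one over Sxl, overlapped no MNase H4K16ac region of 3-4 h. The regions over Tpst and CanA-14F each overlapped 2 sonicated H4K16ac regions of 11-12 h. They were chosen by width after the region over Sxl had been seen.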
